A study of Solanum lycopersicum with 30 samples.

Results

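Tomato leaves challenged with tobacco mosaic virus (TMV) were profiled on spotted 2-colour arrays, and 3 defence enzymes of the array are described here: the lipoxygenase POTLX-3, the hydroperoxide lyase HPL and the polyphenol oxidase PPO. The members were the genes whose spots carried 1 of these names as their only symbol in the platform annotation. They made up 3 of 430 symbols, 5 of 15360 clones and 10 of 32448 spots. HPL and PPO had 2 clones each and POTLX-3 had 1, and every clone was printed in duplicate. The tomato gene table used here held 0 of the 430 gene identifiers that the platform gives for its symbols, so whether the clones detect the tomato genes of those names was not established. That table (assembly SLM_r2.1) names 1 tomato gene HPL, lists PPO as a synonym of 2 genes, and has no entry under POTLX-3.

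There were 3 genotypes. Plants of genotype n were susceptible to TMV and those of genotype N were resistant, while sun1-1 carries a mutation in the N background that makes plants more susceptible. The N protein, first known from tobacco, recognises TMV and sets off local cell death. Leaves of plants grown for 28 to 35 days were sampled at 3, 9 and 27 h, and each RNA sample came from 1 plant. Every array paired a Cy3-labelled sample of TMV-treated leaf with a Cy5-labelled sample of mock-treated leaf of the same genotype and time, with 3 arrays in each of the 3 susceptible and 3 sun1-1 groups and 4 in each of the 3 resistant groups. The labels also say that the experiment was run 3 times, so how the fourth resistant array of each group relates to these runs is not stated, and n = 4 counts arrays. For the resistant arrays named replicate 4 at 9 h and at 27 h, the treatment protocol gave 3 h and 9 h, and both were grouped by title. All values are deposited log2 ratios of the 2 channels. The labels do not say which channel is the numerator and no dyes were swapped, so a positive value can mean more signal after TMV or more after mock treatment. If a probe took up 1 dye better than the other, that effect remains in TMV against mock but drops out when genotypes are subtracted from each other.

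Oxylipins are oxidised fatty acids that plants make when leaves are wounded or attacked. Lipoxygenases add oxygen to linoleic and linolenic acid. The resulting hydroperoxides are cleaved by hydroperoxide lyase into short aldehydes, the green leaf volatiles, or enter a competing branch that leads to jasmonate. POTLX-3 is the name of a potato leaf lipoxygenase known in potato as responsive to pathogens. Polyphenol oxidase is a copper enzyme of plastids that oxidises phenolics to quinones, which brown the tissue and cross-link proteins. Tomato has several polyphenol oxidase genes, some of them known as inducible by wounding and jasmonate. No sequence of the clones was used here.

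HPL and PPO were measured on all 30 arrays, POTLX-3 on 12. In none of the 3 genotypes at any time did a member pass the test for TMV against mock. No member passed it for a difference between genotypes or over time either. In each of these comparisons 0% of all features were called, so the lack of calls is not particular to the members. PPO varied more than HPL between arrays of a group, and its clones moved together. It ranged from -1.56 to 1.08, whereas HPL ranged from -0.55 to 0.99 and POTLX-3 from -0.30 to 0.89, all as log2 ratios. The leaves were whole tissue, so fewer cells of a type and less RNA per cell cannot be told apart.

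The arrays differed in quality. Clones with a value numbered 2173 to 9511 per array, and the SD of the ratios on an array ran from 0.22 to 1.35 (median 0.36). The widest array was sun1-1 at 3 h, replicate 3, where 40.1% of clones were at 2-fold or more, against a median of 1.57% over the arrays. Another array, sun1-1 at 27 h, replicate 1, had an SD of 0.69 and 12.5% of its clones at 2-fold or more. Intensities were not used here, so signal over background is unknown. The number of arrays limits the precision of every value.

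**Figure D1:**
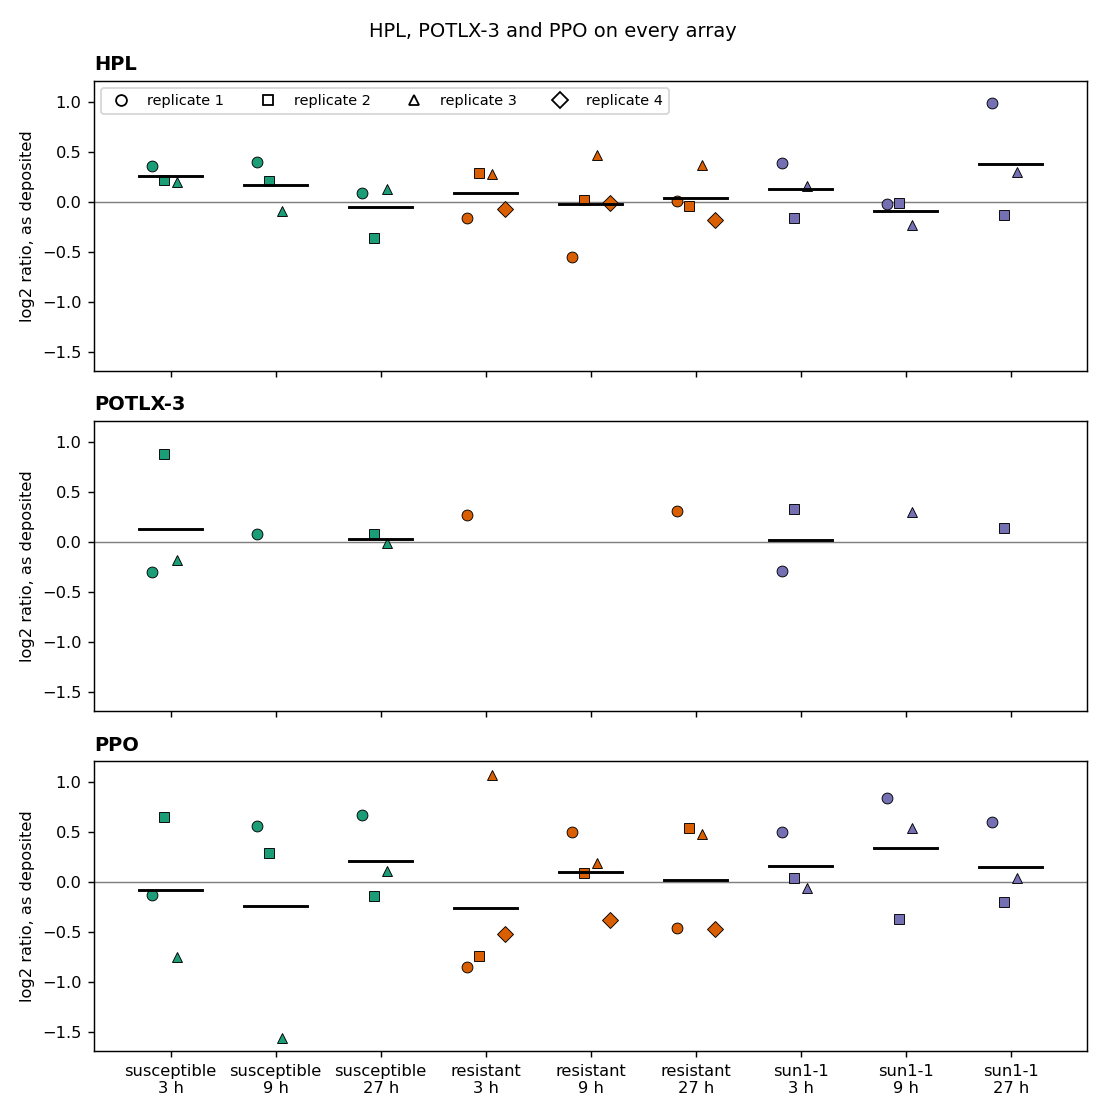
Log2 ratio of POTLX-3, HPL and PPO (vertical axis) on each array, by genotype and time (horizontal axis). Colours mark genotypes, marker shapes mark replicate numbers, and black bars are group means. PPO spans -1.56 to 1.08 and crosses 0 in every group, HPL stays within -0.55 to 0.99, and POTLX-3 has 12 points.

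POTLX-3, the lipoxygenase, had a value on 6 of 9 susceptible, 2 of 12 resistant and 4 of 9 sun1-1 arrays. Whether its products are those that HPL cleaves or that lead to jasmonate was not examined here. Over the 12590 clones with a value on any array, 58.8% of the susceptible, 43.4% of the resistant and 57.5% of the sun1-1 cells were filled. Of its 60 spot readings 18 were present, and both spots were read on 6 arrays. The part of array coverage in this difference between genotypes was not tested.

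In susceptible leaves at 3 h, POTLX-3 stood at -0.30, 0.89 and -0.18. The single susceptible value at 9 h was 0.08, and those at 27 h were 0.08 and -0.01. Susceptible replicate 2 at 3 h was thus the high value, and its other susceptible values lay near or below 0. In resistant leaves the gene was read once at 3 h, at 0.28, and once at 27 h, at 0.31, with no reading at 9 h. In sun1-1 it stood at -0.29 and 0.33 at 3 h, at 0.30 at 9 h and at 0.14 at 27 h. Resistant and sun1-1 values all lay within the susceptible range.

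Where POTLX-3 could be tested, no difference was found. Susceptible leaves at 3 h gave a mean log2 ratio of 0.13 ± 0.65 (SD, n = 3; limma adjusted p = 0.995). At 27 h the susceptible mean was 0.04 (n = 2, limma adjusted p = 0.986), and sun1-1 at 3 h had a mean of 0.02 (n = 2, limma adjusted p = 0.998). The difference of sun1-1 minus susceptible at 3 h was -0.11 (95% interval -0.95 to 0.73, limma adjusted p = 0.998). In each of these 4 comparisons 0% of all features were called. The interval of that difference lay within 2-fold and came closer to it on the negative side.

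HPL, the hydroperoxide lyase, had ratios close to 0 on most arrays. It was positive on 17 arrays and negative on 13, with a median log2 ratio of 0.05. No array reached 2-fold, and 2 of 30 reached 0.5 in either direction.

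In susceptible leaves, HPL was 0.36, 0.22 and 0.20 at 3 h. At 9 h it was 0.40, 0.21 and -0.09. At 27 h it was 0.09, -0.36 and 0.13. All 3 susceptible arrays at 3 h were positive, and at 9 h and 27 h 1 array of 3 was negative. The means were 0.26 ± 0.08 at 3 h, 0.17 ± 0.25 at 9 h and -0.05 ± 0.27 at 27 h (SD, n = 3 each). The 3 h value had an unadjusted p of 0.156 by limma, and an adjusted p of 0.986 over all features tested. Its 95% interval, which rests on a spread pooled over groups, ran from -0.11 to 0.63. HPL changes over the 3 susceptible times did not pass the test (limma F test, adjusted p = 0.983).

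In resistant leaves, HPL was -0.16, 0.29, 0.28 and -0.07 at 3 h. At 9 h the arrays gave -0.55, 0.01, 0.47 and -0.01. At 27 h they gave 0.01, -0.05, 0.37 and -0.18. Each resistant time had 2 positive and 2 negative arrays, and the ranges of the 3 times overlapped. The means were 0.09 ± 0.23, -0.02 ± 0.42 and 0.04 ± 0.24 at 3, 9 and 27 h (SD, n = 4 each). Replicate 3 was the highest at 9 h and at 27 h.

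In sun1-1 leaves, HPL was 0.39, -0.16 and 0.16 at 3 h. At 9 h it was -0.02, -0.01 and -0.24. At 27 h it was 0.99, -0.13 and 0.30. The arrays at 9 h were all negative, with 2 of 3 close to 0, and the 27 h group held the highest HPL value of the series beside a negative one. The means were 0.13 ± 0.28, -0.09 ± 0.13 and 0.38 ± 0.57 at 3, 9 and 27 h (SD, n = 3 each).

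The sun1-1 27 h mean of HPL was the only member value whose 95% interval, 0.02 to 0.75, left out 0. Its unadjusted p by limma was 0.0413 and its adjusted p 0.524. At an unadjusted p under 0.05, 9.09% of the 7390 features tested lay in that comparison, and 6.6% over all 24 comparisons, while 0% were called after adjustment. Without replicate 1, the array with an SD of 0.69, the mean was 0.08. With the column of replicate 2 left as deposited, HPL was empty on that array and the mean of the other arrays was 0.64. Array quality weights gave a mean of 0.086 (unadjusted p by limma 0.556), arrays scaled to 1 spread gave 0.27 (0.147), and the replicate block gave 0.34 (0.0830).

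PPO, the enzyme that acts on phenolics, departed from 0 far more often. It was positive on 17 arrays and negative on 13, as HPL was, but 15 of 30 arrays reached 0.5 in either direction and 2 reached 2-fold. On the median array its ratio was larger in size than 81.8% of the clones of that array, against 43.9% for HPL and 58.7% for POTLX-3 over its 12 arrays.

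In susceptible leaves, PPO was -0.13, 0.65 and -0.74 at 3 h. At 9 h it was 0.56, 0.29 and -1.56. At 27 h it was 0.68, -0.14 and 0.11. Each time held values of both signs, and replicate 3 at 9 h was the lowest PPO value of the series. On that array, whose SD was 0.25, PPO was larger in size than 99.9% of 6414 clones. The means were -0.07 ± 0.70, -0.23 ± 1.15 and 0.22 ± 0.42 at 3, 9 and 27 h (SD, n = 3 each). Without replicate 3 the 9 h mean was 0.43, of the opposite sign.

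In resistant leaves, PPO was -0.85, -0.73, 1.08 and -0.51 at 3 h. At 9 h it was 0.51, 0.09, 0.20 and -0.38. At 27 h it was -0.46, 0.54, 0.49 and -0.46. The 3 h group held 3 negative arrays and the highest PPO value of the series, replicate 3, and 1 of the PPO clones was empty on that array. The clone that was read there, that of spot 137880, gave 1.18 and 0.98 at its duplicate spots, larger in size than 99.7% of 3942 clones when averaged. The means were -0.25 ± 0.90, 0.11 ± 0.37 and 0.03 ± 0.56 at 3, 9 and 27 h (SD, n = 4 each).

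The other PPO clone, that of spot 150205, had a mean of -0.66 over the 3 resistant arrays at 3 h on which it was read (unadjusted p by limma 0.0446, adjusted p = 0.480). The clone of spot 137880, read on every array of that group, had a mean of -0.28 (unadjusted p by limma 0.368, adjusted p = 0.779). For resistant leaves at 3 h, 9.7% of the 5793 features tested lay at an unadjusted p under 0.05 by limma. In that share the clones of a gene were averaged. For the gene, the 3 h mean without replicate 3 of every group was -0.70 (limma adjusted p = 0.387). Leaving out that array alone gave the same mean with an adjusted p of 0.473 by limma. Replicate 3 was the only positive array of the resistant 3 h group. Leaving it out therefore left 3 values below 0 by choice. The clone mean of -0.66 rests on the same 3 arrays, and none of these comparisons passed the test.

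In sun1-1 leaves, PPO was 0.50, 0.05 and -0.06 at 3 h. At 9 h it was 0.84, -0.36 and 0.54. At 27 h it was 0.60, -0.19 and 0.05. Replicate 1 was the highest of its group at each time, and each group also held a negative array. The means were 0.16 ± 0.30, 0.34 ± 0.63 and 0.15 ± 0.41 at 3, 9 and 27 h (SD, n = 3 each). For the 9 h mean, the highest of the 9 PPO means, the 95% interval ran from -0.37 to 1.05. That mean was 0.089 without replicate 1 and 0.69 without replicate 2.

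Over the 9 groups, HPL had 1 sign on all arrays in 2 groups (susceptible 3 h and sun1-1 9 h) and PPO in 0. How often other features had 1 sign in groups this small was not computed, so the counts do not set HPL apart from PPO. Intervals at 95% included 0 for 8 of 9 HPL means and for 9 of 9 PPO means. All 9 HPL intervals lay within 2-fold in either direction, as did 8 of 9 PPO intervals. Adjusted p-values by limma were 0.524 or more for HPL and 0.795 or more for PPO in TMV against mock. In each of these 9 comparisons 0% of features were called, so the array as a whole gave no calls to set the members against.

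**Figure D2:**
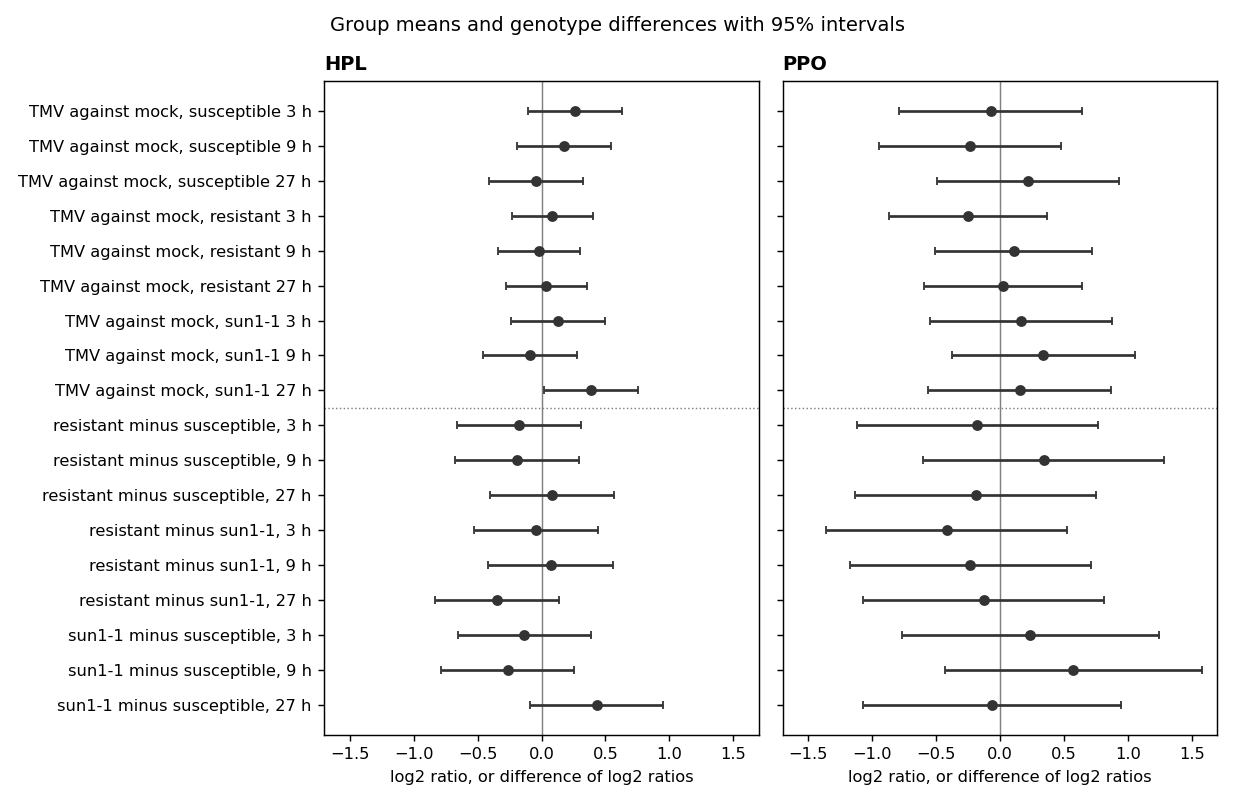
Mean log2 ratios of HPL and PPO for TMV against mock, and differences in that ratio between genotypes, with 95% intervals from the fit over all 9 groups. Only the HPL mean of sun1-1 at 27 h, 0.02 to 0.75, has an interval that leaves out 0, and PPO intervals are wider than those of HPL throughout.

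The question that sets the genotypes apart is whether the ratio differed between plants with N, without it, or with N and the sun1-1 mutation. Ranges of the arrays overlapped in 9 of 9 genotype comparisons for HPL and in 9 of 9 for PPO. The share of all features with overlapping ranges was not computed, so these counts only describe the 2 genes. All 9 intervals of each gene included 0, and 0% of features were called in these comparisons.

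For HPL, the largest difference was sun1-1 minus susceptible at 27 h, 0.43 (95% interval -0.09 to 0.95, limma adjusted p = 0.513). Resistant minus sun1-1 at 27 h followed, at -0.35 (95% interval -0.83 to 0.14, limma adjusted p = 0.909). Both contain the sun1-1 array with the value of 0.99, and without it they were 0.13 and -0.043. With array quality weights they were 0.12 and 0.012. The other HPL differences lay between -0.26 and 0.08. All 9 HPL intervals stayed within 2-fold.

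For PPO, the largest difference was sun1-1 minus susceptible at 9 h, 0.57 (95% interval -0.43 to 1.58, limma adjusted p = 0.956). It contains the susceptible array at -1.56, and without replicate 3 of every group the difference was -0.19. Resistant minus sun1-1 at 3 h was -0.42 (95% interval -1.36 to 0.53, limma adjusted p = 0.952). It was -0.052 without replicate 1 of every group and -0.97 without replicate 3, which holds the resistant array at 1.08. Resistant minus susceptible at 9 h was 0.34 (95% interval -0.60 to 1.28, limma adjusted p = 0.915), and -0.32 without the susceptible array at -1.56. In 0 of 9 comparisons did the PPO interval stay within 2-fold. Each PPO interval held a 2-fold difference in 1 direction and not in the other.

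Averaged over the 3 genotypes, HPL stood at 0.16, 0.02 and 0.12 at 3, 9 and 27 h, and PPO at -0.06, 0.07 and 0.13. At 3 h, 0.0933% of features (5 of 5357) were called in this comparison, and neither HPL (limma adjusted p = 0.400) nor PPO (limma adjusted p = 0.890) was among them. At 9 h and 27 h 0% were called. Neither gene passed the F test for a change over time in any genotype, where again 0% of features were called. The adjusted p-values by limma were 0.983, 0.971 and 0.744 for HPL and 0.999, 0.908 and 0.990 for PPO in susceptible, resistant and sun1-1 leaves.

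Over all 24 comparisons, members entered 52 tests and were called in 0. At an unadjusted p under 0.05 by limma there was 1, the HPL value of sun1-1 at 27 h, where 6.6% of the 144990 tests of all features lay under that threshold.

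The spread of PPO was seen at both of its clones. Duplicate spots of the PPO clones correlated at r = 0.960 and 0.945 across arrays, and spots differed with an SD of 0.13 and 0.15. The PPO clones themselves correlated at r = 0.956 (Spearman's rho 0.937) over the 27 arrays that read both, with the same sign on 24. The SD between PPO clones was 0.12, against 0.66 between arrays of a group. The clones are separate probes of 1 RNA sample on 1 array, so they share whatever that array and that plant carried.

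HPL clones had a lower correlation. They correlated at r = 0.527 (Spearman's rho 0.625) over 28 arrays, with the same sign on 21. On the widest array, sun1-1 at 3 h, replicate 3, they stood at 0.91 and -0.60, which is 1.51 apart, so the HPL value of 0.16 there is the mean of opposed readings. Without that array the HPL clones correlated at r = 0.843, and the PPO clones at r = 0.964. The SD between HPL clones was 0.24 with that array and 0.13 without it, against 0.11 for PPO without it. Over all arrays that read both clones, the median absolute difference was 0.13 for HPL and 0.10 for PPO. HPL also spanned a narrower range of ratios than PPO, which bears on r. With all arrays kept, the median clone correlation among 71 symbols with exactly 2 clones was 0.799. Of these, 9 symbols were at or above PPO and 54 at or above HPL. For POTLX-3, the 6 arrays with both spots gave r = 0.681 between spots and an SD of 0.21. These correlations are given as descriptions, since arrays of all groups enter them together.

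**Figure D3:**
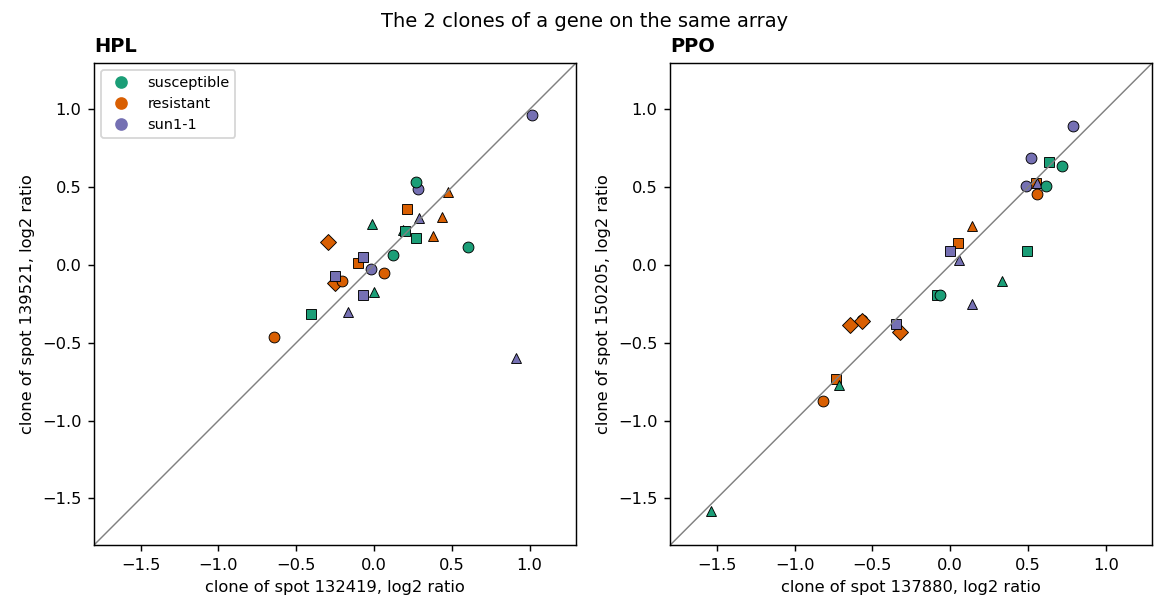
Log2 ratio of 1 clone (horizontal axis) against the other clone of the same gene (vertical axis), 1 point per array, for HPL (28 arrays) and PPO (27 arrays). PPO points follow the diagonal over its whole range, and the HPL point farthest from the diagonal is sun1-1 at 3 h, replicate 3, at 0.91 and -0.60.

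Between arrays of 1 group, the SD of the PPO log2 ratio was 0.66, above 94.0% of 5649 features whose median was 0.35. The SD of HPL was 0.31, above 35.9% of them. Both genes are averages of 2 clones, whereas most features are single clones, and averaging can lower an SD. The clones of HPL and PPO were not ranked on their own. The SD of POTLX-3, 0.51, rests on 4 residual degrees of freedom and was not ranked. Removing both arrays at which PPO reached 2-fold lowered its SD to 0.46, above 74.6% of features, and removing replicate 3 of every group gave 0.49, above 81.0%. The 2-fold arrays were chosen by PPO's own values, while other features kept their extremes. That choice by itself lowers the SD of PPO and its rank. With arrays scaled to 1 common spread it was 0.77, above 99.0%. Each array pairs 1 TMV-treated with 1 mock-treated plant, so plant-to-plant variation in either treatment and array-to-array error are both in this spread and cannot be told apart.

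**Figure D4:**
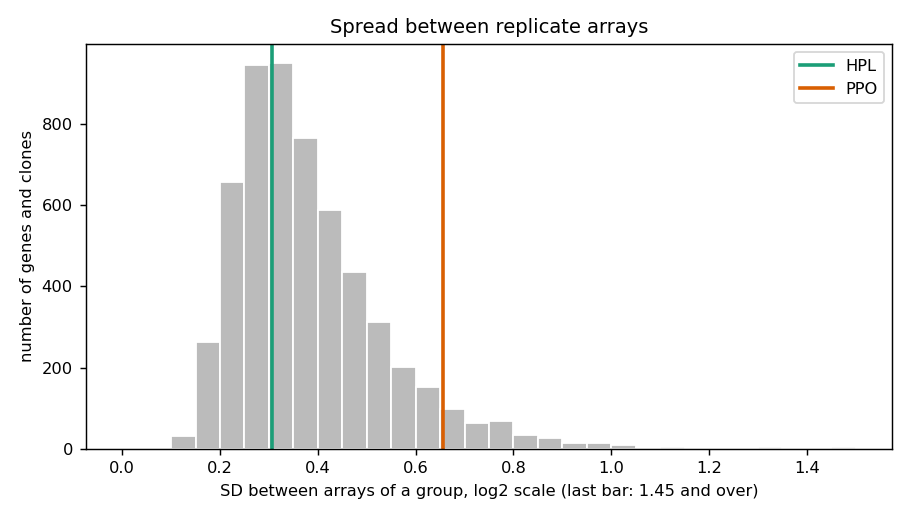
Distribution over 5649 features of the SD of the log2 ratio between arrays of a group (horizontal axis), as numbers of features (vertical axis), with HPL and PPO marked. HPL, at 0.31, lies below the median of 0.35, and PPO, at 0.66, lies above 94.0% of features. Both genes are averages of 2 clones, whereas most features are single clones.

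HPL and PPO were set against each other over the 30 arrays. The same sign was found on 20 arrays, with Pearson's r = 0.271 (permutation p = 0.148, adjusted 0.370) and Spearman's rho = 0.313 (permutation p = 0.0926, adjusted 0.309), 2-sided. After the mean of each group was removed, r was 0.390 (permutation p = 0.0323, adjusted 0.161) and rho 0.437 (permutation p = 0.0159, adjusted 0.159). Adjustment was over the 10 relations computed, and none passed it. The permutations shuffled arrays freely, without regard to groups or to the unequal spread of arrays. The p-values after group means were removed may therefore be too small. Leaving out the 2 arrays farthest from the HPL median gave r = 0.327 for the ratios and 0.469 after group means were removed. Within genotypes, r was 0.392 in susceptible, 0.178 in resistant and 0.315 in sun1-1 leaves, and without the 2 farthest arrays of each it was -0.05, 0.51 and -0.22.

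Other genes were ranked by how closely their ratio followed that of a member, over 333 symbols that shared at least 20 arrays with it. For HPL the nearest were SKT3, a potassium channel name from potato (r = 0.618, rho = 0.430, 24 arrays), SI1 (r = 0.591, rho = 0.367, 30 arrays) and LOC102602308 (r = 0.573, rho = 0.433, 29 arrays). For PPO they were LOC102577558 (r = 0.494, rho = 0.437, 30 arrays), LOC102577923 (r = 0.431, rho = 0.451, 29 arrays) and LOC102593129 (r = 0.398, rho = 0.425, 27 arrays). The median r over the symbols was 0.01 for HPL and 0.03 for PPO, and r was as low as -0.684 and -0.447. POTLX-3 shared 20 arrays with 0 symbols. The points of these correlations share arrays and their spread, and the nearest gene differed between HPL and PPO.

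Further enzymes of the pathways were looked for by name: other lipoxygenases and enzymes of jasmonate synthesis, enzymes of phenolic synthesis and oxidation, and genes known to respond to jasmonate. Beyond the members, 0 of the single symbols matched the prefixes of these lists. Only 91 of the 430 symbols are names that such a search could match, since the others start with LOC, and most clones carry no symbol. Other enzymes of both pathways may therefore be on the array.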

How the data were processed

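The authors deposited 1 log2 ratio per spot and array, centred near 0. Of software, limma is named by the submitters' processing notes, with no version. Background correction, normalization and the filter behind empty cells are not given in the sources used here. In addition, the column of sun1-1 27 h replicate 2 was moved up by 1 row, which raised the average size of its correlation with the 29 other arrays from 0.0115 to 0.172 across spots. Duplicate spots were averaged into 15360 clones, and clones with 1 symbol into genes, which gave 12212 features, 426 of them genes with a value. Group means for 9 groups were fitted to every feature by least squares, with variances moderated by limma 3.58.1 in R 4.3.3 (prior df 5.66, prior SD 0.32). Each comparison needed 2 arrays per group. P-values were adjusted by Benjamini-Hochberg over all features of a comparison, with 0.05 as the threshold. The fit was tested on simulated data. Correlations across arrays were tested with 100000 resamples. The named genes were the members and, for each, the 3 symbols with the highest r. Alternatives covered centring, scaling, array weights, filters, clone handling, a replicate block and arrays left out. The members and lists were chosen with earlier results of these data known. Leaving out the arrays at which PPO reached 2-fold, and the spread between arrays under each alternative, were added after seeing the data.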

Additional observations from a re-analysis of the deposited data

How the results depend on the processing

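No member passed the threshold under any of the alternatives run: of 772 member values, 0 passed, 45 changed sign, and the lowest adjusted p was 0.256 (limma). Some alternatives cannot change a member's mean, such as the median over clones or an array left out of another group. The 45 of 772 is thus no measure of how stable the signs are. Member values are listed below where their sign changed. The cause of the changes below was not tested.

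With limma's array quality weights, HPL stood at 0.037 in resistant leaves at 9 h and at 0.012 in resistant minus sun1-1 at 27 h. Under the same weights POTLX-3 in sun1-1 at 3 h was -0.011, and PPO was -0.061 in sun1-1 at 27 h, 0.041 in susceptible leaves at 3 h, 0.075 and -0.11 in the means of genotypes at 3 h and 9 h, and 0.13 in resistant minus sun1-1 at 27 h. With arrays scaled to 1 spread, HPL was 0.011 in resistant leaves at 9 h, POTLX-3 was -0.086 in sun1-1 at 3 h, and PPO was -0.039 in the mean at 9 h. The replicate block gave -0.0055 for HPL and -0.021 for PPO in the mean at 9 h and 0.010 for PPO in resistant minus sun1-1 at 27 h. Once group means were removed, arrays of 1 replicate number correlated at a mean r of -0.022 over 111 pairs (-0.56 to 0.63). The 288 pairs of different numbers had a mean r of 0.0072 (-0.54 to 0.56). Of 30 arrays, 8 correlated best with 1 of their own number. Pairing within genotypes was not examined, so whether replicate numbers pair some of the arrays is not settled.

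Arrays or replicates left out moved HPL from -0.00067 to 0.035 (mean of genotypes 9 h), -0.0019 to 0.27 (sun1-1 3 h), -0.045 to 0.16 (resistant minus susceptible 27 h), -0.075 to 0.11 (resistant 27 h), -0.13 to 0.11 (susceptible 27 h), -0.17 to 0.28 (resistant minus sun1-1 9 h), -0.18 to 0.16 (resistant 9 h), -0.25 to 0.17 (resistant minus sun1-1 3 h), -0.49 to 0.10 (resistant minus susceptible 9 h). They moved PPO from -0.0055 to 0.27 (sun1-1 3 h), -0.013 to 0.40 (susceptible 27 h), -0.029 to 0.27 (resistant 9 h), -0.073 to 0.32 (sun1-1 27 h), -0.15 to 0.19 (resistant 27 h), -0.19 to 0.29 (mean of genotypes 9 h), -0.19 to 1.19 (sun1-1 minus susceptible 9 h), -0.35 to 0.61 (resistant minus susceptible 9 h), -0.44 to 0.26 (susceptible 3 h), -0.47 to 0.26 (resistant minus sun1-1 27 h), -0.54 to 0.20 (resistant minus susceptible 27 h), -0.63 to 0.43 (susceptible 9 h), -0.96 to 0.34 (resistant minus susceptible 3 h). POTLX-3 moved from -0.24 to 0.35 (susceptible 3 h). Other values kept their sign but moved widely, among them HPL from 0.08 to 0.64 (sun1-1 27 h). For PPO such moves were -0.70 to -0.057 (resistant 3 h), -0.97 to -0.052 (resistant minus sun1-1 3 h) and 0.013 to 0.66 (sun1-1 minus susceptible 3 h).

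Calls over all features also moved. The mean of genotypes at 3 h, with 5 calls, had 174 with weights, 54 with scaling and 2 among genes with a symbol, and 0 to 31 with arrays or replicates left out. The mean at 27 h had 1 call with weights, 1 with the replicate block, 1 with at least 3 arrays, 2 with clones as features and 1 among genes with a symbol. Susceptible leaves at 3 h had 112 with weights, 3 with scaling and 1 among genes with a symbol. For sun1-1 leaves, 27 h had 65 with weights and 1 among genes with a symbol, and 3 h had 2 with weights and 1 with scaling. Resistant leaves at 3 h had 2 with the replicate block and 1 each with weights, scaling and at least 3 arrays, and sun1-1 minus susceptible at 27 h had 1 with weights. With arrays or replicates left out, calls ran from 0 to 1 (change over time sun1-1), 0 to 1 (mean of genotypes 27 h), 0 to 1 (resistant 3 h), 0 to 1 (sun1-1 minus susceptible 27 h), 0 to 2 (susceptible 3 h), 0 to 249 (sun1-1 3 h). A minimum of 15 arrays per clone left POTLX-3 with no value.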
